A study of Rattus norvegicus with 17 samples.

Results

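The EGF receptor family of the rat meibomian gland (MG) was examined through 10 genes, chosen by name: the receptors Egfr, Erbb2 and Erbb3, and the ligands Hbegf, Areg, Ereg, Tgfa, Btc, Epgn and Egf. The choice was made with earlier results of these data known. All 10 were among the 17251 genes of the deposited table and among the 13105 genes that passed the filter on low values (at least 1 TPM in at least 3 rats). MGs of 17 female rats were sequenced, with 1 column of values per rat, to ask how overexpression of the mineralocorticoid receptor (MR) alters the response of the gland to UVB in a model of ocular rosacea. The rats were 10-12 weeks old and on a Sprague-Dawley background. Control WT (n = 4) and Control P1.hMR (n = 5) rats were not treated, whereas UVB WT (n = 3) and UVB P1.hMR (n = 5) rats had their eyelids exposed to UVB for 5 days. P1.hMR rats carry the human MR gene NR3C2 behind its own proximal P1 promoter, which is active with varying strength wherever MR is expressed, so the transgene is not limited to the MG. The methods state that irradiated eyelids were shaved and do not say so of the controls, so shaving and UVB cannot be told apart here. The study took 1 eye of an animal or pooled both eyes into a single sample, so each library stands for 1 rat.

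Expression is given as TPM, a length-corrected share of each library in which levels of different genes may be compared. TPM keeps no read number, so the depth of each library is unknown. The label of the tissue was checked against 10 meibocyte genes, whose summed level ran from 20257 to 27026 TPM over all rats. Marker genes of other tissues were present too. The 2 listed conjunctiva genes summed to 3941 to 6887 TPM, and 8 suprabasal keratinocyte genes to 4332 to 7567 TPM. The 7 listed skeletal muscle genes summed to 1576 to 3596 TPM. The levels given here therefore cannot be assigned to meibocytes alone. The 7 WT rats had 0 TPM of NR3C2, and the 10 P1.hMR rats had 5.31 to 9.31 TPM. Between 12372 and 12737 genes per rat reached 1 TPM.

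EGFR is a receptor tyrosine kinase that pairs with itself or with the related ERBB2 and ERBB3 when a ligand binds. ERBB2 has no known ligand and ERBB3 has little kinase activity of its own, so each of them signals mainly within a pair. The ligands are made as membrane proteins and are released by metalloproteases such as ADAM17, and signalling through RAS and ERK controls growth, migration and survival of epidermal, corneal and sebaceous cells. UV light is known to activate EGFR in keratinocytes.

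A pair of promoters is shown first, those of Areg and Epgn, the ligands with the largest log2 fold changes after UVB in P1.hMR rats. Btc, Areg, Ereg and Epgn followed each other as 4 consecutive protein-coding genes on chromosome 14 of the RefSeq annotation of GRCr8. The 250 bases before the annotated start are printed 5′ to 3′ on the strand of the gene, from RefSeq and GRCr8, in lower case. Capitals in Areg mark a full cyclic AMP response element (TGACGTCA) that begins at position -91, and a TATA box (TATAAA) that begins at position -61, with -1 as the last base before the start. None of the searched motifs lay in the Epgn sequence, which has no capitals.
Areg, chr14:17265642-17265891, minus strand: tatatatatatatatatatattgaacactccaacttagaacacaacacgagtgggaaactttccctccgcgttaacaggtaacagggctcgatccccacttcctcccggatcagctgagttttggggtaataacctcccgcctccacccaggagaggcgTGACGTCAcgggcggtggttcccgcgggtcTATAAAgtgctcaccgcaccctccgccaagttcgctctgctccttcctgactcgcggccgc
Epgn, chr14:17369001-17369250, minus strand: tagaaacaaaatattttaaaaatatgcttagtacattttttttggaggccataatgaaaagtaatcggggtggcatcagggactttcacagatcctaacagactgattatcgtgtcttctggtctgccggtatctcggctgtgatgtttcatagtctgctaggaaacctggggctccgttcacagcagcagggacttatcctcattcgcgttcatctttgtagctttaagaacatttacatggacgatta

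The sequences differ in composition, with 54.4% G and C in Areg and 41.2% in Epgn. Motifs were searched on both strands in the promoters of the 8 members found in the RefSeq table. The full cyclic AMP element was held by 1.7% of all 27457 promoters of this length and the TATA box by 13.1%, and among the members Areg alone had either. The shorter form TGACG, contained in the full element, was also found in Hbegf, from position -193, and 19.0% of all promoters hold it. The AP-1 motif TGANTCA was in none of the 8 and in 6.4% of all promoters. The corticosteroid response element GNACANNNTGTNC, the kind of sequence that MR and the glucocorticoid receptor bind, was in none of the 8 and in 0.4% of all promoters, and the CArG box of serum response factor was in none of the 8 and in 1.5%. The NF-kappaB motif GGGNNNNNCC was in Erbb2, Areg, Tgfa, Btc and Egf, and in 43.5% of all promoters. These matches describe letters within 250 bases and not binding.

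In untreated glands the receptors were the most abundant members. The median level in Control WT rats was 82.3 TPM for Erbb2, 55.5 TPM for Erbb3 and 36.4 TPM for Egfr. Tgfa, the ligand TGF-alpha, followed with a median of 35.7 TPM, and its range overlapped that of Egfr. The other ligands were Ereg (epiregulin, 11.3 TPM), Hbegf (heparin-binding EGF, 7.04 TPM), Areg (amphiregulin, 3.22 TPM), Btc (betacellulin, 1.82 TPM), Egf (1.27 TPM) and Epgn (epigen, 1.06 TPM). The ranges of Areg and Btc overlapped, as did those of Egf and Epgn, so the order within these pairs was not resolved. Control P1.hMR rats had the same order of medians.

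After UVB the bottom of the order was rearranged. Epgn moved from rank 10 of 10 in both control groups to rank 7 in UVB WT and rank 8 in UVB P1.hMR rats, where its range overlapped that of Areg. The top of the order stayed with Erbb2 and Erbb3, whose ranges did not overlap in any group. Tgfa and Egfr exchanged ranks 3 and 4 by median, with overlapping ranges.

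**Figure D1:**
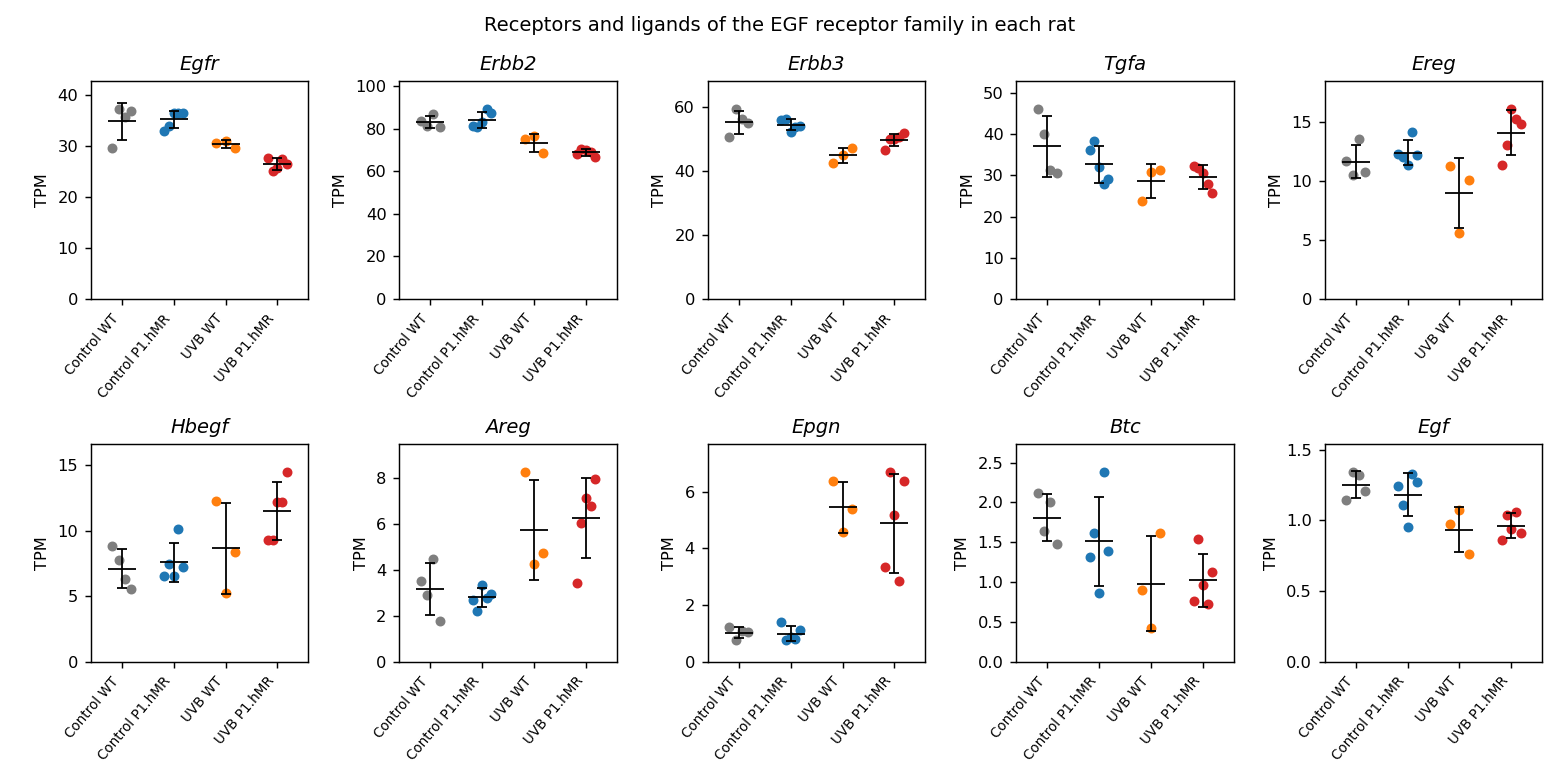
TPM of the 10 members in each rat (points, y axes from 0, 1 panel per gene) by group, with the mean and SD of the group as a black bar. Epgn in UVB rats (2.83 to 6.69 TPM) lies above all control rats (0.76 to 1.4 TPM), while Erbb2 lies lower in UVB rats than in control rats.

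Epgn gave the largest change of the family. It was listed at 1.21, 0.76, 1.07 and 1.04 TPM in Control WT and at 6.37, 4.58 and 5.4 TPM in UVB WT rats. In P1.hMR rats it was at 1.4, 0.77, 0.85, 0.8 and 1.12 TPM without UVB and at 3.35, 6.69, 5.16, 2.83 and 6.38 TPM after UVB. All 8 UVB rats were therefore above all 9 control rats. Epigen is a broad ligand of EGFR with low affinity, known from skin. Mean TPM was 5.34 times higher after UVB in WT and 4.94 times higher in P1.hMR rats. On the scale of log2(TPM + 1), which understates the change of low genes, the log2 fold change was 1.67 in WT (standard error 0.21, limma with Benjamini-Hochberg adjustment over all genes tested, adjusted p = 0.000115) and 1.52 in P1.hMR rats (standard error 0.17, limma adjusted p = 8.21e-06). When rats were left out singly, it stayed between 1.57 and 1.77 in WT rats and between 1.41 and 1.66 in P1.hMR rats. The change in P1.hMR rats minus that in WT rats was -0.15 with a 95% interval of -0.72 to 0.42.

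Areg encodes amphiregulin, a ligand of EGFR in keratinocytes and in wound repair. Its levels were 3.53, 2.91, 4.49 and 1.79 TPM in Control WT and 8.27, 4.27 and 4.74 TPM in UVB WT rats, ranges that overlapped. They were 2.7, 2.22, 3.33, 2.79 and 2.95 TPM in Control P1.hMR and 3.43, 6.04, 7.15, 6.79 and 7.98 TPM in UVB P1.hMR rats, where the lowest UVB rat lay just above the highest control. Areg rose in P1.hMR rats, by 0.91 on the log2 scale (standard error 0.20, limma adjusted p = 0.0024). In WT rats the log2 fold change was 0.69 (standard error 0.25) and missed the threshold (limma adjusted p = 0.0559). It passed in WT when Control WT replicate 3 (0.83), UVB WT replicate 2 (0.85) or UVB P1.hMR replicate 1 (0.69) was left out, the last of which enters only through the shared estimate of the spread. Without UVB WT replicate 1, the highest of its group, the value in WT was 0.44 (limma adjusted p = 0.252). The change in P1.hMR minus that in WT rats was 0.22 with a 95% interval of -0.46 to 0.89, so these data did not separate the genotypes.

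Hbegf, whose product binds both EGFR and ERBB4 and takes part in wound closure, was at 8.83, 7.77, 6.31 and 5.54 TPM in Control WT and at 12.27, 5.27 and 8.41 TPM in UVB WT rats. The lowest and the highest of these 7 rats were both irradiated. In P1.hMR rats it was at 6.55, 7.47, 6.55, 10.11 and 7.22 TPM without UVB and at 9.32, 9.28, 12.16, 12.18 and 14.48 TPM after UVB. Control P1.hMR replicate 4 lay above the lowest pair of UVB rats, and the other 4 controls lay below all UVB P1.hMR rats. The log2 fold change was 0.20 in WT (standard error 0.22, limma adjusted p = 0.542), and it was -0.06 without UVB WT replicate 1. In P1.hMR rats Hbegf rose by the threshold used, with 0.54 (standard error 0.18, limma adjusted p = 0.0255). That call was lost without Control P1.hMR replicate 1 or 3 or without UVB P1.hMR replicate 3, 4 or 5, where the value lay between 0.46 and 0.51.

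Read against all genes, 1 of 10 members was called higher after UVB in WT (Epgn) and 3 of 10 in P1.hMR rats (Epgn, Areg and Hbegf), where a call needs an adjusted p below 0.05 together with a log2 fold change of 0.5 or more in size. The same rule called 3.92% of all genes tested higher in WT rats and 5.05% in P1.hMR rats. No member was called lower, against 3.98% of genes in WT rats and 5.71% in P1.hMR rats. Ranges over rats, which need no fit, were apart for 4 members in WT (Erbb2, Erbb3, Epgn and Egf; 26.6% of all genes) and for 5 members in P1.hMR rats (Egfr, Erbb2, Erbb3, Areg and Epgn; 27.2% of all genes). The median log2 fold change of the 10 members was -0.20 in WT rats and -0.13 in P1.hMR rats, and that of all genes was 0.01 and -0.02.

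**Figure D2:**
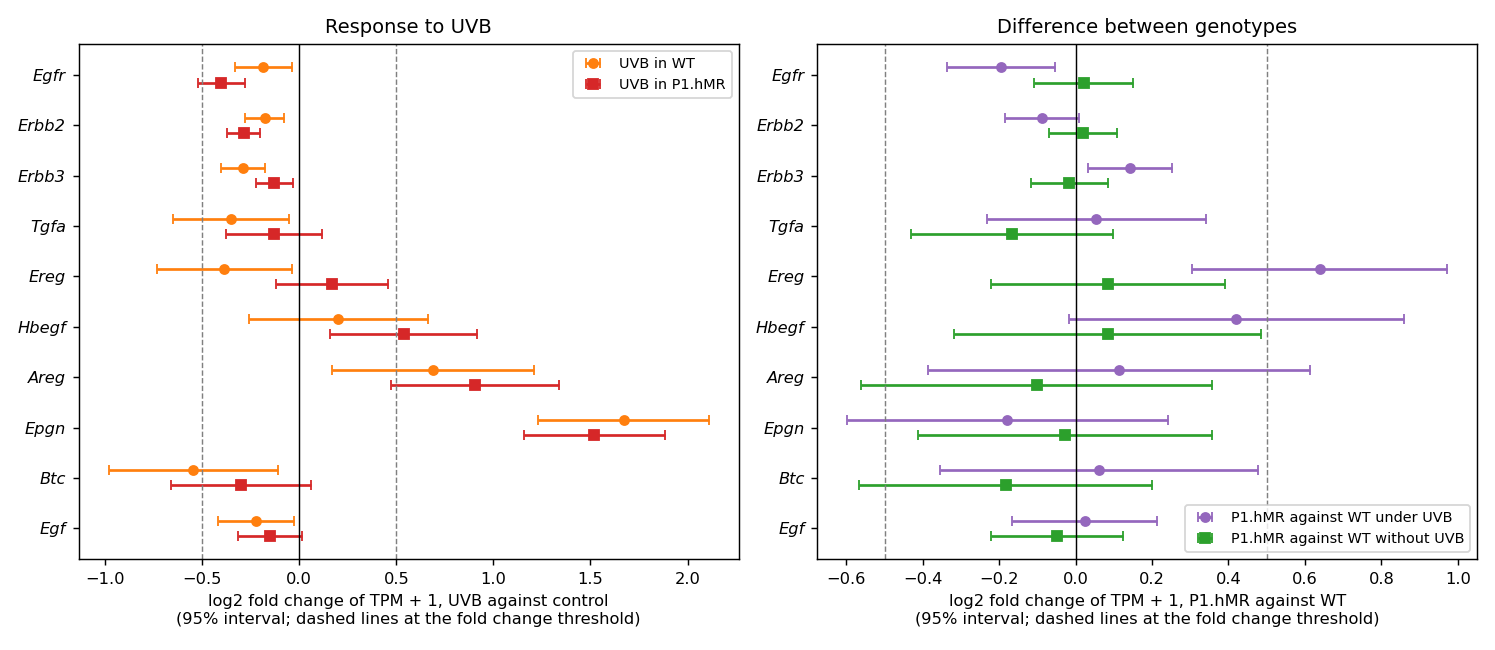
Log2 fold change of TPM + 1 with its 95% interval (x axes) for each member, UVB against control in WT and P1.hMR rats on the left and P1.hMR against WT with and without UVB on the right, with dashed lines at 0.5 and -0.5. Epgn and Areg stand to the right in the UVB panel and all 3 receptors to the left of 0, and Ereg has the largest difference between genotypes under UVB (0.64).

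All 3 receptors had lower mean levels after UVB, by less than the fold change threshold, and the difference passed the adjusted p for all but Egfr in WT rats. Egfr was at 29.57, 37.25, 35.77 and 37.02 TPM in Control WT and at 30.65, 31.11 and 29.58 TPM in UVB WT rats. It was at 33, 34.04, 36.56, 36.52 and 36.47 TPM in Control P1.hMR and at 27.63, 25.05, 25.68, 27.56 and 26.49 TPM in UVB P1.hMR rats. In P1.hMR rats the groups were apart, and in WT rats Control WT replicate 1 lay below all irradiated rats. The log2 fold change of Egfr was -0.40 in P1.hMR (standard error 0.06, limma adjusted p = 6.37e-05) and -0.19 in WT rats (standard error 0.07, limma adjusted p = 0.067). Leaving out Control WT replicate 1 changed the value in WT to -0.26 (limma adjusted p = 0.00333).

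Erbb2 encodes the partner receptor that binds no ligand. It was at 83.42, 81.21, 86.69 and 80.56 TPM in Control WT and at 75.06, 76.48 and 68.38 TPM in UVB WT rats. It was at 81.09, 80.57, 83.02, 88.96 and 87.14 TPM in Control P1.hMR and at 68.19, 70.48, 69.89, 68.74 and 66.59 TPM in UVB P1.hMR rats. Every irradiated rat lay below every control rat in both genotypes. The log2 fold change was -0.18 in WT (standard error 0.05, limma adjusted p = 0.0152) and -0.29 in P1.hMR rats (standard error 0.04, limma adjusted p = 4.92e-05). Without UVB WT replicate 3 the value in WT was -0.13 and no longer passed (limma adjusted p = 0.0846).

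Erbb3, a receptor for neuregulins, was at 50.5, 59.23, 56.14 and 54.86 TPM in Control WT and at 42.6, 45.01 and 47.22 TPM in UVB WT rats. It was at 55.99, 56.18, 52.28, 53.89 and 53.99 TPM in Control P1.hMR and at 46.42, 49.85, 49.89, 50.64 and 51.71 TPM in UVB P1.hMR rats. Neither pair of groups overlapped. The log2 fold change was -0.29 in WT (standard error 0.05, limma adjusted p = 0.00185) and -0.13 in P1.hMR rats (standard error 0.05, limma adjusted p = 0.0309). The P1.hMR value no longer passed without Control P1.hMR replicate 1 or 2 or UVB P1.hMR replicate 1, where it lay between -0.12 and -0.11. ERBB3 is also known from Schwann cells and melanocytes, and their markers were read beside it. The sum of 6 Schwann cell genes ran from 101 to 150 TPM in control rats and from 77.4 to 87.0 TPM in UVB rats, and 3 of the 6 in WT and 2 of the 6 in P1.hMR rats were called lower. The sum of the 5 listed melanocyte genes ran from 74.8 to 137 TPM in control rats, from 56.7 to 66.1 TPM in UVB WT and from 75.9 to 130 TPM in UVB P1.hMR rats, with 3 of 5 called lower in WT and 0 of 5 in P1.hMR rats. Erbb3 itself was lower by the limma adjusted p alone, at any fold change. That rule marked 4 of 5 melanocyte genes as lower in WT and 2 of 5 in P1.hMR rats. Their median log2 fold changes were -0.70 (WT) and -0.36 (P1.hMR). It marked 4 of 6 Schwann cell genes as lower in WT and 5 of 6 in P1.hMR rats, against 10.3% and 20.6% of all genes. The part of the Schwann cell and melanocyte genes in the Erbb3 values was not tested. In these bulk samples fewer cells of a type and less RNA per cell cannot be told apart.

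At any fold change, an adjusted p under 0.05 marked 2 members as lower in WT (Erbb2 and Erbb3) and 3 in P1.hMR rats (all 3 receptors). Among all genes the share was 10.3% in WT rats and 20.6% in P1.hMR rats. The same rule marked only Epgn as higher in WT, where it marked 11.2% of all genes, and Epgn, Areg and Hbegf in P1.hMR rats, where it marked 18.5%. The direction of the 3 receptors was the same under both scaling alternatives, but which of them passed was not. Egfr in WT rats passed with quantile normalization (limma adjusted p = 0.0455), median-of-ratios scaling (0.0441) and sample weights (0.0298). Erbb3 in P1.hMR rats did not pass with median-of-ratios scaling (limma adjusted p = 0.0739) or the hair shaft covariate (0.0817), and Erbb2 in WT rats did not pass in a fit of WT rats alone (limma adjusted p = 0.0844).

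The summed level of the 3 receptors ran from 163 to 179 TPM in control rats and from 142 to 153 TPM in UVB rats. The summed level of the 7 ligands had medians of 62.6 TPM in Control WT, 59.4 TPM in Control P1.hMR, 62.3 TPM in UVB WT and 69.5 TPM in UVB P1.hMR rats, with overlapping ranges. The makeup of that sum is described by shares, without a test. The median share of Tgfa was 60.0% in Control WT and 57.3% in Control P1.hMR, and 50.2% in UVB WT and 41.8% in UVB P1.hMR rats. Its range was 52.2% to 61.7% in Control WT and 37.3% to 59.2% in UVB WT rats, which overlapped. In P1.hMR rats it was 46.9% to 60.2% without UVB and 35.9% to 52.7% after UVB, which also overlapped. The median share of Epgn was 1.70% and 1.52% in the control groups, and 8.82% in UVB WT and 7.07% in UVB P1.hMR rats. The ranges of the Epgn share in UVB and control rats were apart in both genotypes.

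**Figure D3:**
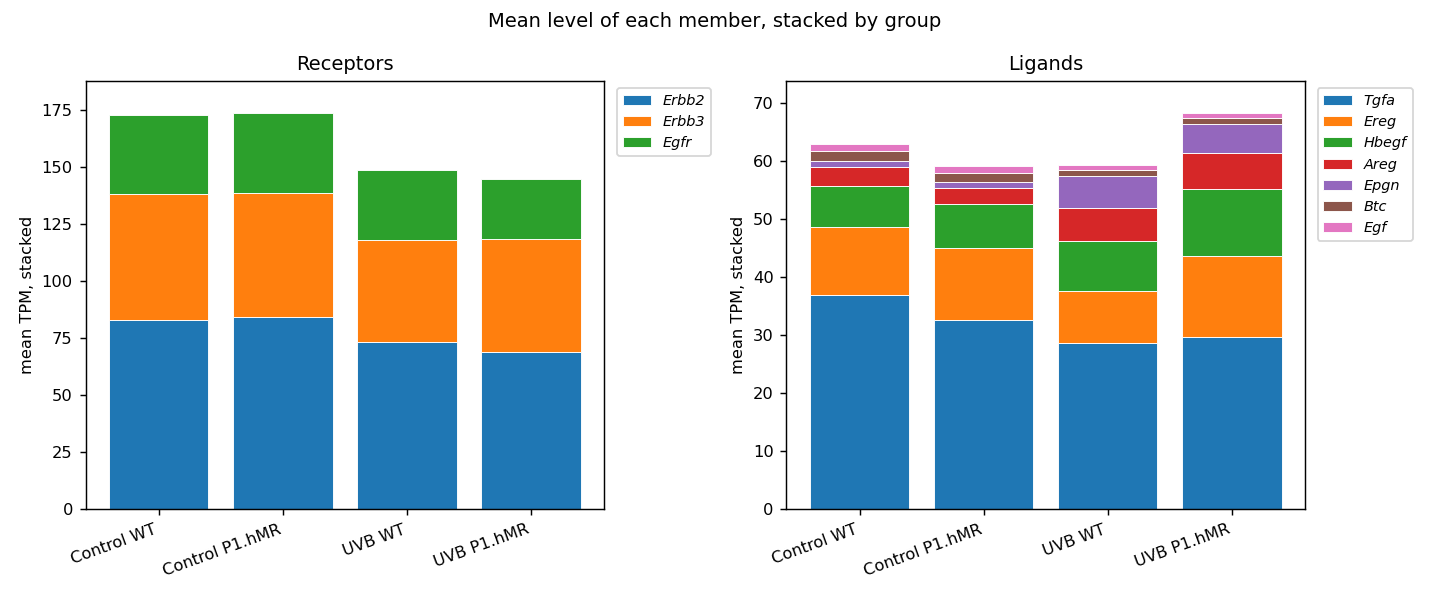
Mean TPM of the receptors (left) and ligands (right), stacked within each of the 4 groups, with y axes from 0. The receptor columns are lower in both UVB groups, and within the ligand columns the bands of Epgn and Areg are wider after UVB while that of Tgfa is narrower.

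Tgfa, Btc and Egf were not called after UVB. Tgfa, an autocrine ligand of many epithelia, was at 46.04, 39.99, 31.41 and 30.71 TPM in Control WT and at 23.82, 30.73 and 31.28 TPM in UVB WT rats, which gave a log2 fold change of -0.35 (standard error 0.14, limma adjusted p = 0.0884). In P1.hMR rats it ranged from 27.83 to 38.25 TPM without UVB and from 25.63 to 32.4 TPM after UVB, a log2 fold change of -0.13 (limma adjusted p = 0.402). Btc ranged from 1.48 to 2.12 TPM in Control WT and from 0.42 to 1.61 TPM in UVB WT rats, with a log2 fold change for WT of -0.55 (limma adjusted p = 0.0696) and for P1.hMR of -0.30 (limma adjusted p = 0.175). Without UVB WT replicate 3 the WT value of Btc was -0.77 and passed (limma adjusted p = 0.0207), and without UVB WT replicate 2 it was -0.33 (limma adjusted p = 0.313). Egf lay between 0.76 and 1.34 TPM in all rats, and its UVB responses on the log2 scale were -0.22 (WT) and -0.15 (P1.hMR; limma adjusted p = 0.1 and 0.136). UVB WT rats did not overlap Control WT rats for Egf, at levels close to 1 TPM. Its adjusted p in WT rats was 0.0444 with no filter on low values and 0.0338 with no variance trend (limma), at a fold change below the threshold. Tgfa in WT rats was at -0.23 without UVB WT replicate 1 (limma adjusted p = 0.32).

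Ereg, which encodes the ligand epiregulin, differed most between the genotypes after UVB. It was at 11.72, 10.54, 13.59 and 10.78 TPM in Control WT and at 12.26, 12.07, 11.35, 14.15 and 12.18 TPM in Control P1.hMR rats. After UVB it was at 11.27, 5.6 and 10.08 TPM in WT and at 11.35, 13.09, 16.08, 15.24 and 14.84 TPM in P1.hMR rats. The irradiated groups did not overlap, although the highest UVB WT and the lowest UVB P1.hMR rat were separated by little, and the control groups overlapped. Under UVB the log2 fold change of P1.hMR against WT was 0.64 (standard error 0.16), with an unadjusted p = 0.00089 and an adjusted p = 0.226 from limma, so the difference did not pass. UVB WT replicate 2 had the lowest value, and without it the log2 fold change was 0.37 (limma adjusted p = 0.611). UVB against control gave -0.39 in WT (limma adjusted p = 0.106) and 0.17 in P1.hMR rats (limma adjusted p = 0.351). Without UVB WT replicate 1 the WT value was -0.56 and passed (limma adjusted p = 0.0324), and without UVB WT replicate 2 it was -0.11 (limma adjusted p = 0.582).

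No member was called between the genotypes. Without UVB the log2 fold changes of P1.hMR against WT ran from -0.18 (Btc) to 0.09 (Ereg), limma gave an adjusted p of 0.998 for all 10 members, and 0 members were under an unadjusted p of 0.05, against 4.03% of all genes. The call rule passed 0.00763% of all genes tested there. Under UVB the rule passed 0.0229% of all genes and 0 members. This background depends on single libraries, since 3 genes were called under UVB with all rats and 51 without UVB WT replicate 3, and 0 members in either case. Without Control WT replicate 4 the genes called went from 1 to 6 without UVB and from 3 to 5 under UVB. Ereg, Egfr (-0.20) and Erbb3 (0.14) were under an unadjusted p of 0.05 in limma, 3 of 10 members, against 10.3% of all genes, with adjusted p of 0.226, 0.333 and 0.357. The ranges of UVB P1.hMR and UVB WT rats did not overlap for Ereg and Egfr, 2 of 10 members, against 5.87% of all genes. The 95% interval of the difference under UVB was -0.39 to 0.61 for Areg, -0.60 to 0.24 for Epgn and -0.02 to 0.86 for Hbegf, so differences of these sizes cannot be told from 0 with 3 UVB WT rats.

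The interaction, the UVB response of P1.hMR minus that of WT rats, passed in limma for 0 members and for 0.0% of all genes. Without UVB WT replicate 3 it passed together with a log2 fold change of 0.5 or more in size for 8 genes, none of them a member. At an unadjusted p under 0.05 it marked 3 members, against 6.92% of all genes. Ereg had 0.55 (standard error 0.21), with an unadjusted p = 0.0197 and an adjusted p = 0.704 from limma. Egfr had -0.22 (standard error 0.09), with an unadjusted p = 0.0285 and an adjusted p = 0.711 from limma. Erbb3 had 0.16 (standard error 0.07), with an unadjusted p = 0.0381 and the same adjusted p. Areg and Hbegf, called after UVB only in P1.hMR rats, were therefore not shown to respond differently in the genotypes. Without UVB WT replicate 2 the interaction of Ereg was 0.28.

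The other genes of the pathway were taken from 6 lists, of which 61 genes were tested. After UVB 7 of them were called higher and 1 lower in WT rats, against 3.92% and 3.98% of all genes tested. In P1.hMR rats 8 were called higher and 1 lower, against 5.05% and 5.71% of all genes tested. Most of the calls came from the list of ERK output and feedback, genes that the ERK cascade induces or that feed back on it. Of 15 tested genes of ERK output and feedback, 5 were called higher in each genotype and 0 lower. The median response on the log2 scale was 0.35 (WT) and 0.31 (P1.hMR), beside 0.01 and -0.02 for all genes. At any fold change, a limma adjusted p under 0.05 marked 8 as higher and 1, Dusp5 (-0.33), as lower in WT rats. In P1.hMR rats it marked 8 as higher and 2, Spred2 and Epha4 (both -0.31), as lower. Among all genes it marked 11.2% as higher and 10.3% as lower in WT, and 18.5% and 20.6% in P1.hMR rats. The lists were chosen with earlier results known, so these counts do not test for an excess.

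Dusp6, the phosphatase that inactivates ERK, rose in both genotypes. Its mean was 9.04 ± 1.72 TPM (SD, n = 4) in Control WT against 16.9 ± 3.04 TPM (SD, n = 3) in UVB WT rats. It was 8.30 ± 1.89 TPM (SD, n = 5) in Control P1.hMR against 18.8 ± 2.02 TPM (SD, n = 5) in UVB P1.hMR rats. Its log2 fold changes were 0.84 (limma adjusted p = 0.00319) and 1.11 (limma adjusted p = 2.50e-05). Spry4, an inhibitor of receptor tyrosine kinase signalling, rose by 0.71 and 0.81 on the log2 scale (limma adjusted p = 0.000293 and 4.76e-06). The transcription factor genes Etv4 (0.64 in WT and 0.91 in P1.hMR) and Fosl1 (0.70 and 0.83), the latter for the AP-1 subunit FRA1, were called in both genotypes. Dusp4 was called in WT alone (0.58, and 0.32 in P1.hMR) and Etv5 in P1.hMR alone (0.55, and 0.47 in WT), and the interaction was called for neither. The other 9 tested genes of the list were not called, among them Ccnd1 and Spry2.

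**Figure D4:**
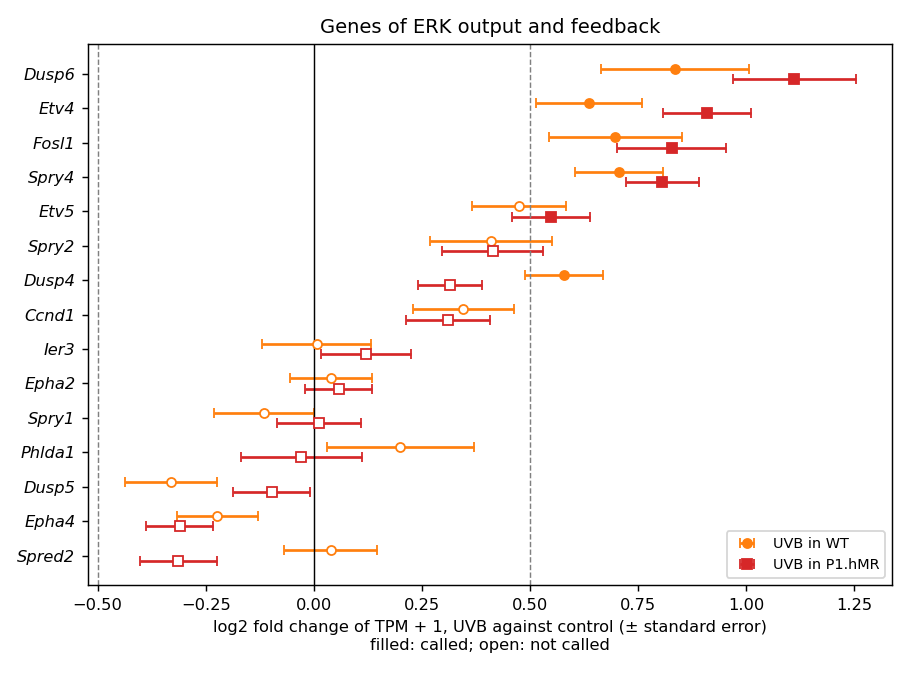
Log2 fold change of TPM + 1 after UVB with its standard error (x axis) for the 15 tested genes of ERK output and feedback, in WT (circles) and P1.hMR rats (squares), filled where called, with dashed lines at 0.5 and -0.5. Dusp6, Etv4, Fosl1 and Spry4 are filled in both genotypes and Spred2, Epha4 and Dusp5 lie below 0 in P1.hMR rats without a call.

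Neuregulins, which bind ERBB3, ERBB4 or both, were tested through Nrg1, Nrg2 and Nrg4. Their list held 5 genes, and its other genes, Erbb4 and Nrg3, were not tested. The mean of Nrg1 was 1.31 ± 0.30 TPM (SD, n = 4) in Control WT against 2.84 ± 0.64 TPM (SD, n = 3) in UVB WT rats, and 1.17 ± 0.41 TPM (SD, n = 5) in Control P1.hMR against 2.99 ± 0.81 TPM (SD, n = 5) in UVB P1.hMR rats. It rose by 0.73 and 0.87 on the log2 scale (limma adjusted p = 0.0115 and 0.000394). Nrg2 rose by 0.65 in WT rats and 0.61 in P1.hMR rats on the log2 scale (limma adjusted p = 0.0241 and 0.0063). Its mean was 4.61 ± 1.82 TPM (SD, n = 4) in Control WT against 7.48 ± 0.59 TPM (SD, n = 3) in UVB WT rats. The ranges of Nrg2 overlapped in WT and were apart in P1.hMR rats. Nrg4, at 18.6 ± 3.35 TPM (SD, n = 4) in Control WT the most abundant of the tested neuregulins, had log2 fold changes of -0.03 and -0.13 and was not called.

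Among 9 tested receptor inhibitors and ubiquitin ligases, Lrig1 was the only call. It encodes a membrane protein that restrains ErbB receptors and marks stem cells of the epidermis, and its mean was 45.0 ± 4.46 TPM (SD, n = 5) in Control P1.hMR rats, against 30.6 ± 1.58 TPM (SD, n = 5) in UVB P1.hMR rats. Lrig1 fell in P1.hMR rats with a log2 fold change of -0.54 (limma adjusted p = 4.29e-05). In WT rats its log2 fold change was -0.47 (limma adjusted p = 0.00187), short of the fold change threshold. Errfi1, which encodes the feedback inhibitor MIG6, had the largest log2 fold change of this list, -0.56 in WT (limma adjusted p = 0.0727), and had -0.24 in P1.hMR rats. None of the 6 tested sheddases and iRhoms was called by limma, and Adam10 alone had an adjusted p under 0.05, in P1.hMR rats (log2 fold change 0.15, limma adjusted p = 0.0141). Adam17, which encodes a sheddase of several of these ligands, had log2 fold changes of -0.01 and 0.07. The largest of the list was 0.39 for the rhomboid protease gene Rhbdl2 in WT (limma adjusted p = 0.0587). Of 20 tested adaptors and kinases, the docking protein gene Gab2 alone was called, in WT, with -0.57 (limma adjusted p = 0.00398) and -0.42 in P1.hMR rats. At any fold change, a limma adjusted p under 0.05 marked 5 of the 20 as higher and 3 as lower in WT rats. It marked 6 as higher and 5 as lower in P1.hMR rats. Among all genes that rule marked 11.2% as higher and 10.3% as lower in WT, and 18.5% and 20.6% in P1.hMR rats. Of 8 endocytosis and scaffold genes, Rin1 alone was called, in P1.hMR rats, with 0.61 (limma adjusted p = 0.000667) and 0.46 in WT.

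Cell type markers were summed beside these results. The call rule marked 3.92% of all genes tested as higher and 3.98% as lower in WT rats, and 5.05% and 5.71% in P1.hMR rats. Of the 10 meibocyte genes, 2 were called higher and 1 lower after UVB in each genotype. The 5 listed basal keratinocyte genes summed to between 8038 and 10247 TPM in control rats, to between 10506 and 11607 TPM in UVB WT and to between 8313 and 13370 TPM in UVB P1.hMR rats, and none of the 5 was called. The 9 macrophage genes summed to between 57.0 and 105 TPM in control rats and to between 73.3 and 131 TPM in UVB rats, with 3 of 9 called higher in each genotype. The 8 listed hair shaft genes summed to between 299 and 801 TPM in control rats and to between 176 and 458 TPM in UVB rats, with 4 of 8 called lower in WT and 2 of 8 in P1.hMR rats. Of the 5 listed fibroblast genes, which summed to between 896 and 1522 TPM in control rats and to between 1176 and 1900 TPM in UVB rats, 3 were called higher in each genotype and 1 lower in P1.hMR rats. The 5 listed neutrophil genes summed to between 1563 and 1916 TPM in control rats and to between 1840 and 2821 TPM in UVB rats. Of the 3 tested, 1 was called higher in WT rats and 2 were in P1.hMR rats. Nearly all of this sum was S100a8 (1210 to 2030 TPM over all rats) and S100a9 (307 to 788 TPM). Csf3r lay between 0.05 and 2.55 TPM, and Mpo and Retnlg did not exceed 0.66 TPM. The paper located S100A9 also in the epithelium of human eyelids, so this sum cannot be read as a level of neutrophils. The part of the keratinocyte, fibroblast, macrophage and neutrophil genes in the changes of the ligands, neuregulins and receptors was not tested. With the mean of the hair shaft genes or of the skeletal muscle genes as a covariate, 1 member was called in WT rats and 3 in P1.hMR rats, as without it. Over all 13105 genes tested, the calls in WT rats went from 1036 to 724 with the hair shaft covariate and to 1041 with the skeletal muscle covariate. In P1.hMR rats they went from 1410 to 1403 and to 1376. The hair shaft covariate moved the values of members that were not called in WT rats, to 0.43 for Areg (limma adjusted p = 0.403), -0.21 for Ereg (limma adjusted p = 0.561) and -0.28 for Btc (limma adjusted p = 0.505).

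The genes most like each member over the 17 rats were found by Pearson's r of log2(TPM + 1), a description in which the difference between UVB and control rats takes part. For Epgn they were Slc27a4 (r = 0.956) and Slc5a5 (r = 0.949), for Areg Cenpk (r = 0.920) and Cuedc2 (r = 0.918), and for Hbegf Chst11 (r = 0.878) and Myef2 (r = 0.848). For Egfr they were Smarcc2 (r = 0.971) and Slc6a4 (r = 0.964), for Erbb2 Gprc5c (r = 0.955) and Ldhb (r = 0.954), and for Erbb3 Ccdc120 (r = 0.895) and Plb1 (r = 0.888). For Ereg they were Crym (r = 0.840) and Scnn1a (r = 0.825), which encodes a subunit of the epithelial sodium channel. For Tgfa they were Cdc34 (r = 0.943) and Zfand2a (r = 0.921), for Btc Wdr47 (r = 0.868) and RGD1563818 (r = 0.838), and for Egf Rtfdc1 (r = 0.864) and Ric3 (r = 0.863).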

How the data were processed

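RNA of the MG of 17 rats was sequenced by the authors, who deposited TPM with 2 decimals for 17251 genes, 1 column per rat. The submitters' processing notes name FastQC, Trimmomatic, DRAGEN, Picard and the rn7 build, while the paper's methods name FastQC, STAR and RSEM, and which of them made the deposited TPM is not given in the sources used here. TPM keeps no counts, so depth is unknown and precision comes from the spread between rats. The sum of the deposited TPM was between 804378 and 840817 per rat, so part of the features is not in the table.

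Rats were grouped by their labels. Genes that reached 1 TPM in 3 or more rats, 13105 in all, entered limma 3.58.1 (R 4.3.3) as log2(TPM + 1), with a pseudocount of 1. A single fit held the 4 group means, with a variance trend. Calls needed a two-sided p below 0.05 after Benjamini-Hochberg adjustment over these genes and a log2 fold change of 0.5 or more in size (for the interaction, the adjusted p alone). The paper's count test could not be used on TPM. The model was tested on simulated data. Python 3.11.15 with pandas 2.3.3 and matplotlib 3.10.9 served for the other steps.

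The members and gene lists were chosen with earlier results of these data known. Named were all members, pathway genes called after UVB or with the largest log2 fold change of their list, and the 2 genes most like each member. Adam10, Adam17, Ccnd1, Spry2, Spred2, Epha4, Dusp5, Nrg4 and the listed neutrophil genes were added after their values were seen. Alternatives were other pseudocounts, filters, scalings, fits, weights, covariates and thresholds, a replicate block, and each rat left out. Promoters came from RefSeq tables of GRCr8, and no GRCr8 coordinate was combined with the rn7 values.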

Additional observations from a re-analysis of the deposited data

How the results depend on the processing

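The number of members called after UVB in WT rats (1) became 0 with a mean of at least 5 TPM, a filter that does not test Epgn, Areg, Btc and Egf, became 3 with no fold change threshold, and lay between 1 and 2 with each rat left out. The number in P1.hMR rats (3) became 1 under the same filter, 6 with no fold change threshold and 1 when a log2 fold change of 1 or more in size was required. For Hbegf in WT rats the log2 fold change was lowest, at -0.061, without UVB WT replicate 1, and was highest, at 0.48, without UVB WT replicate 2. The pseudocount of 0.1, no filter, scaling by quantiles or by the median of ratios, fitting the compared groups alone, no variance trend, sample weights and both covariates left the number of members called as it was in all comparisons they were run for. By mean instead of median, 2 ranks changed in Control WT and 6 in UVB WT rats. Replicate numbers of different groups belong to different rats. With the replicate number as a block, the calls numbered 1 (WT) and 3 (P1.hMR), Tgfa in WT rats had -0.42 with a limma adjusted p = 0.0229, short of the fold change threshold, and same-numbered rats had a median correlation of their deviations of -0.01 (22 pairs, from -0.19 to 0.24). With 3 UVB WT rats and no read counts, small differences between genotypes and changes of members near 1 TPM were not resolved.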
